A study of Mus musculus with 24 samples.

Results

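The genes described here mark the blood vessels of the brain and the fibroblasts of its coverings. They are 34 of the 55487 genes in the count tables: 16 of endothelial cells, 8 of mural cells and 10 of fibroblasts, chosen by name and followed in all 24 libraries. PolyA RNA of 3 brain regions was sequenced: hippocampus, cortex and cerebellum. The mice of every group were wild type and had either lost their olfactory bulbs by surgery (olfactory bulbectomy) or been sham-operated. The sources used here give no strain, sex, age or time after surgery. The hippocampus had 4 bulbectomy and 5 sham libraries, the cortex 3 and 5, and the cerebellum 2 and 5. The labels do not say that the libraries of a group came from separate animals, so p-values measure only the spread between these libraries, which may be technical.

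Endothelial cells line the vessels and, in the brain, form the blood-brain barrier through tight junctions (Cldn5, claudin-5), a glucose carrier (Slc2a1, GLUT1) and efflux pumps (Abcb1a, P-glycoprotein). Mural cells lie around the endothelium under a shared basement membrane: pericytes on capillaries and contractile smooth muscle cells on arterioles. Fibroblasts populate the meninges, the membranes that cover the brain, and the sheaths of larger vessels, and they secrete fibrillar collagens and small proteoglycans. Some members are also made by other cells: Slc2a1 by astrocytes and Ptgds, prostaglandin D2 synthase, by oligodendrocytes as well as meningeal cells.

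Egfl7 and Flt1 were the endothelial members that passed the test between sham tissues, so the stretches before their start sites are shown first. Egfl7 encodes a secreted protein of endothelial cells and lies at chr2:26580014-26593120 on the plus strand (GRCm38). Flt1 encodes VEGF receptor 1 and lies at chr5:147561604-147726011 on the minus strand. The sequences are from RefSeq (GRCm38.p6), written 5′ to 3′ on the gene's strand and ended where GENCODE M21 places a UTR. Capitals mark GGAA or its reverse complement TTCC, the core letters of the binding motif of ETS transcription factors, a family that controls many endothelial genes.
Egfl7 start site 1, chr2:26580833-26581055: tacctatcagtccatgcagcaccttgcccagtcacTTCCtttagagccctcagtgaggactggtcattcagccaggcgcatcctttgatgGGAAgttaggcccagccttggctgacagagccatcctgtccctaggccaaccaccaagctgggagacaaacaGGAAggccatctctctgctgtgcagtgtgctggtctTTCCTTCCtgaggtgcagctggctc
Egfl7 start site 2, chr2:26583615-26583863: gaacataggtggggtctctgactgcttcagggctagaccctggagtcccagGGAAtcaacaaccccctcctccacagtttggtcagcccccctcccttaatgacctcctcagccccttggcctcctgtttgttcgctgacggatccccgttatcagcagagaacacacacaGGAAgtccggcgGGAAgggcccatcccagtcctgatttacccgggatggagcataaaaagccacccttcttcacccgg
Egfl7 start site 3, chr2:26586386-26586629: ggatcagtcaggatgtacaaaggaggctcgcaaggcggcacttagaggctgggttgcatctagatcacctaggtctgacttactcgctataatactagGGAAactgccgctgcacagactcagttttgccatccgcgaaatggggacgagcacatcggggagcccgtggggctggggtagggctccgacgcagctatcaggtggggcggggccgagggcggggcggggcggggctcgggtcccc
Flt1 start site, chr5:147726012-147726261: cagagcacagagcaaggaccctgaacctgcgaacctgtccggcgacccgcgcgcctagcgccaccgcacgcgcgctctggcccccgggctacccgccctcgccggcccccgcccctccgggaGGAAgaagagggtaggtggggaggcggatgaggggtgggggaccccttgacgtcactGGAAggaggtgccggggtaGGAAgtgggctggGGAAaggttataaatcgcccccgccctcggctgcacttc
The letters occurred 5, 3 and 1 times before the Egfl7 starts, and 4 times before the Flt1 start. Such a short motif is frequent: over the same bases, 91.33%, 93.35%, 92.98% and 93.45% of all 32851 RefSeq start-site windows hold it on either strand. Of the 34 members, 22 had a RefSeq window, and 12 of 14 endothelial, 4 of 5 mural and 10 of 11 fibroblast windows of 250 bases held it. A match is a description of the letters and not a site. Egfl7 also carries the endothelial microRNA miR-126a in an intron. The mature form miR-126a-3p (chr2:26591402-26591423, plus strand), with its seed, bases 2 to 8, in capitals, is shown because its host gene differs between tissues below, while polyA libraries do not measure the mature form.
mmu-miR-126a-3p: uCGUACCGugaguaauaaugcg

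Depth ran from 3255661 assigned reads in hippocampus sham 1 to 138963332 in hippocampus sham 4, and from 8145624 to 20230673 in the other libraries. The members took 0.1285% to 0.3505% of a library's assigned reads. Cerebellar genes matched the labels: Pcp2, a Purkinje cell gene, was at 204 to 613 CPM (counts scaled to the size of the library) in the cerebellum and at most 12.4 CPM elsewhere. Hippocampus sham 1 and 2 stood apart from the other hippocampus libraries. Their mean log2 CPM over 9 genes of striatal neurons was 7.50 and 7.68, against 3.07 to 3.74 in the other 7. Of 3 hippocampal genes, Spink8 was at 0.614 and 0.765 CPM in sham 1 and 2, against 3.02 to 9.82 CPM in the other 7. Lct was at 18.7 and 1.42 CPM, against 18.5 to 32.6, and Prox1 at 35.9 and 3.17 CPM, against 10.96 to 30.9. Spink8 was thus low in both libraries, and Lct and Prox1 in sham 2. Cerebellum sham 1 stood apart in the vascular genes, and 4 of its member values lay far from the other sham libraries. It stood apart beyond these genes too. Without it 50.2% of all genes passed the test between sham cerebellum and sham cortex, against 30% to 32.2% with 1 other library of these groups left out. Values without these libraries stand beside some of the results they move.

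Among the sham libraries the order of the members by level was much the same in the 3 tissues. Levels between genes are compared as CPM per kilobase of exon. Ptgds was highest, at 512 ± 175 (SD, n = 5) in hippocampus, 691 ± 132 in cortex and 1018 ± 346 in cerebellum. Vtn, encoding vitronectin of pericytes, and Ly6a, encoding an endothelial surface antigen, followed at 103 ± 42.1 and 99.3 ± 33.0 in hippocampus and did not differ beyond their spread. Cldn5 at 43.8 ± 17.6, Ly6c1 at 32.5 ± 10.4, Slc2a1 at 29.5 ± 3.58 and Itm2a at 18.7 ± 4.47 came next, and neighbours among Cldn5, Ly6c1 and Slc2a1 overlapped within 1 SD. The steps from Ptgds to Vtn, from Ly6a to Cldn5 and from Slc2a1 to Itm2a exceeded the SDs. These 7 genes held the same order in cortex and cerebellum. At the other end stood the collagen gene Col3a1, at 0.356 ± 0.230 per kilobase in hippocampus, and Lum, Igf2 and Tagln below it. Tagln, a smooth muscle gene, was at 0 to 0.524 CPM in every library and shares 67.86% of its exon bases with genes on the opposite strand (Gm48529 and Pcsk7), so its reads cannot be told from theirs without the strand setting.

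**Figure D1:**
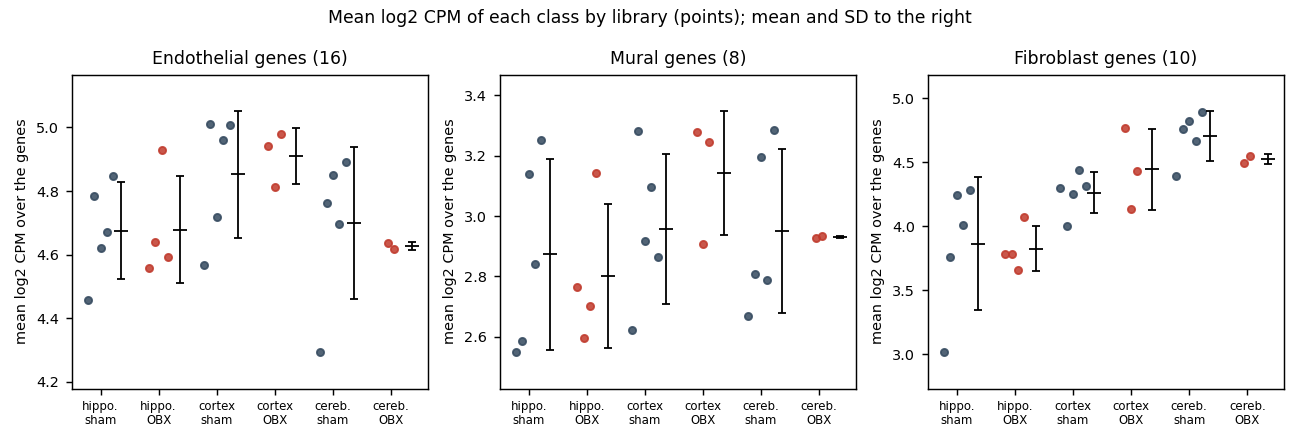
Mean log2 CPM over the 16 endothelial, 8 mural and 10 fibroblast genes in each library (points), by tissue and operation (OBX, bulbectomy), with the group mean and SD at the right of each group; axes do not start at 0. Fibroblast genes averaged 3.86 in sham hippocampus, 4.26 in sham cortex and 4.71 in sham cerebellum. Their sham cortex values overlapped those of both other tissues, and only sham cerebellum and sham hippocampus were apart. Endothelial and mural groups overlapped.

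Most of the 10 fibroblast members were higher in the sham cerebellum than in the sham hippocampus. Of the 10, 4 rose and none fell in cerebellum: the type I collagen chains Col1a1 and Col1a2, Bmp1, the protease that trims procollagen, and Ptgds. The median log2 difference of the 10 was 0.84, against 0.05 over all 15142 genes tested, and 9 of 10 were higher. Over all genes, 12.9% rose and 15.5% fell between these tissues. A list of other fibroblast genes stood out less: of 25 tested 4 rose and 1 fell, with a median of 0.33. Here as in every comparison below, more cells of a type and more RNA per cell cannot be told apart in bulk tissue.

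Col1a2 (chr6:4504814-4541544, plus strand) was at 49.3, 78.4, 87.8, 69.8 and 82.8 CPM in the sham cerebellum libraries. Its sham cortex values were 54.8, 36.5, 33.0, 44.3 and 45.5 CPM, and its sham hippocampus values 23.6, 27.7, 28.6, 23.9 and 34.4 CPM. Cerebellum and hippocampus did not overlap, and cerebellum sham 1 alone lay within the range of cortex. The log2 difference was 1.35 ± 0.18 (SE) against hippocampus (adjusted p = 2.60e-05, edgeR quasi-likelihood test throughout) and 0.69 ± 0.18 against cortex (adjusted p = 0.00626). Without cerebellum sham 1 it was 1.45 and 0.82.

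Col1a1 (chr11:94936224-94953042, plus strand) was at 18.1, 27.3, 31.6, 17.9 and 26.4 CPM in sham cerebellum and at 5.31, 12.7, 15.3, 9.70 and 14.1 CPM in sham hippocampus. The groups did not overlap, and the log2 difference was 1.01 ± 0.23 (adjusted p = 0.00351). In sham cortex it was at 17.5, 24.6, 18.2, 18.6 and 21.2 CPM, overlapping the range of cerebellum (0.18 ± 0.23, adjusted p = 0.581). Of the type I chains only Col1a2 was called in cerebellum against cortex, and the difference between the chains was not tested.

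Bmp1 (chr14:70474558-70520234, minus strand) was at 40.3, 59.0, 63.2, 46.0 and 49.0 CPM in sham cerebellum. It was at 22.7, 34.3, 25.9, 23.1 and 30.2 CPM in sham hippocampus and at 30.5, 37.7, 32.9, 27.9 and 25.1 CPM in sham cortex. Every sham cerebellum library lay above every sham library of the other tissues. The log2 difference was 0.85 ± 0.17 against hippocampus (adjusted p = 0.000938) and 0.65 ± 0.17 against cortex (adjusted p = 0.00558). Cortex and hippocampus overlapped (0.20 ± 0.17, adjusted p = 0.724).

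Ptgds (chr2:25466709-25470046, minus strand) was at 992, 2443, 1880, 1251 and 1830 CPM in sham cerebellum and at 539, 1203, 1086, 628 and 761 CPM in sham hippocampus. The groups overlapped through cerebellum sham 1, and the log2 difference was 0.93 ± 0.25 (adjusted p = 0.0113), or 1.06 without that library. Sham cortex, at 1386, 892, 1352, 1020 and 1044 CPM, lay between them, and neither step passed the test (0.46 ± 0.25 against hippocampus, adjusted p = 0.488; 0.47 ± 0.25 below cerebellum, adjusted p = 0.169). The summed level of 8 oligodendrocyte genes, a second source of Ptgds, followed another order: 3600 to 6476 CPM in sham hippocampus, 1464 to 2126 in sham cortex and 4119 to 4685 in sham cerebellum. Its part in the Ptgds result was not tested.

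Of the other 6 fibroblast members, 5 had higher means in cerebellum than in hippocampus and none passed the test. Fmod, the proteoglycan fibromodulin, was 0.54 ± 0.21 higher in cerebellum than hippocampus (adjusted p = 0.0591), and Slc6a13, the GABA and taurine carrier of meningeal cells, 0.72 ± 0.35 (adjusted p = 0.148). Col3a1 and Lum, a second small proteoglycan gene, were 0.83 ± 0.41 and 0.88 ± 0.44 higher. The exception was Dcn, decorin, at -0.52 ± 0.36. Dcn split the sham hippocampus: 15.9 and 13.9 CPM in sham 1 and 2, and 53.2, 57.8 and 72.9 CPM in the other 3. Without sham 1 and 2, the 2 with striatal genes, Dcn was called lower in cortex than in hippocampus, by -1.32 (adjusted p = 0.00236, against -0.82 ± 0.36 and 0.308 with them), and it was also called lower in cerebellum. Same-numbered sham libraries of hippocampus and cerebellum deviated together, and those of cortex did so with both except for number 5. With the replicate number as a block 8 members were called, or 24.2% of those tested, against 35% of all genes. These were Fmod, Slc6a13 and Col3a1 besides the 4 fibroblast genes above and Egfl7.

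Without hippocampus sham 1 and 2 all 5 calls against hippocampus were kept, with Col1a1 at 0.85, Col1a2 at 1.30, Ptgds at 0.98, Bmp1 at 0.91 and Egfl7 at -1.19.

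Choroid plexus, an epithelium with its own fibroblast stroma, was present unevenly: the summed level of 11 of its genes ran from 53.1 to 979 CPM in sham hippocampus, 33.6 to 1436 in sham cerebellum and 7.48 to 13.6 in sham cortex. The part of choroid plexus tissue in the fibroblast results, Col1a2 included, was not tested.

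**Figure D2:**
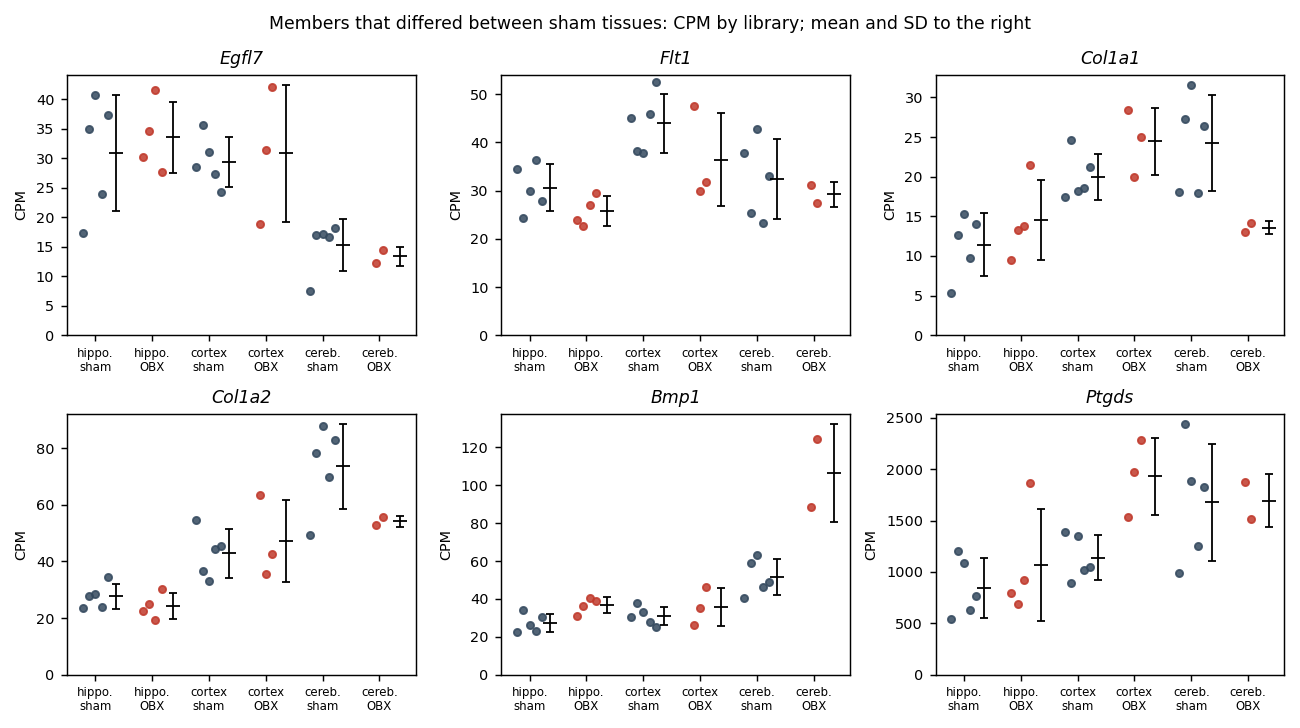
CPM of the 6 members called between sham tissues, in every library (points; OBX, bulbectomy), with the group mean and SD at the right of each group; axes start at 0. In the sham groups the mean of Egfl7 is lowest in cerebellum and that of Col1a2 highest there, and both bulbectomy values of Bmp1 in cerebellum lie above the sham values.

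Between sham cortex and sham hippocampus no member passed the edgeR test. Over all 15142 genes, 1.21% rose and 2.09% fell. At an unadjusted p under 0.05, 7 members were higher in cortex and 1 lower, against 893 and 1149 of all genes. The call depended on the fit: the replicate block called Col1a1 (adjusted p = 0.0137) and Fmod (adjusted p = 0.0426), and a fit of these tissues alone called Col1a2. DESeq2 called 3 of 33 members and 5.91% of all genes, and limma voom 6 of 33 and 10.1%. The fibroblast genes again had the largest median of the 3 classes, 0.45, against -0.02 over all genes, with Col1a2 at 0.66 ± 0.18 (adjusted p = 0.0582) and Col1a1 at 0.82 ± 0.23 (adjusted p = 0.0665). The 5 cortex values of Col1a1 lay above all 5 hippocampus values. The endothelial median was 0.07 and the mural median 0.05. Flt1 was 0.54 ± 0.18 higher in cortex (adjusted p = 0.141) and Tek, the angiopoietin receptor TIE2, 0.51 ± 0.18 (adjusted p = 0.178). In mural cells Rgs5, a regulator of G-protein signalling and a pericyte marker, was 1.01 ± 0.47 higher (adjusted p = 0.358), and Pdgfrb, the receptor that holds pericytes on vessels, 0.21 ± 0.18 (adjusted p = 0.721).

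Of the 16 endothelial genes, Egfl7 was the 1 that fell in sham cerebellum against both other tissues, and none rose with all libraries. Over all genes 15.5% fell against hippocampus and 16.8% against cortex. The class median against hippocampus was 0.04. Egfl7 was at 7.48, 17.0, 17.2, 16.7 and 18.1 CPM in sham cerebellum. It was at 28.5, 35.5, 31.0, 27.4 and 24.2 CPM in sham cortex and at 17.4, 34.9, 40.6, 23.97 and 37.3 CPM in sham hippocampus. Cerebellum and cortex did not overlap, and the lowest hippocampus library, the shallow sham 1, lay within the cerebellum range. Egfl7 fell by 1.08 ± 0.25 on the log2 scale in cerebellum against hippocampus (adjusted p = 0.00312) and by 1.03 ± 0.24 against cortex (adjusted p = 0.00359). Without cerebellum sham 1 the differences were -0.91 and -0.84. The 2 cerebellum bulbectomy libraries, at 12.2 and 14.5 CPM, lay within the sham cerebellum range. Egfl7 shares 9.41% of its exon bases with Gm20532 and Mir126a on its own strand, and 3.41% with genes on the other.

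Flt1 was at 37.9, 25.3, 42.8, 23.2 and 33.1 CPM in sham cerebellum and at 45.2, 38.3, 37.8, 46.0 and 52.6 CPM in sham cortex. The groups overlapped, the log2 difference was -0.53 ± 0.18 (adjusted p = 0.0329), and the call was lost under 9 of 17 other settings. Between these tissues 17.9% of all genes rose and 16.8% fell. The class medians there were -0.26 for endothelial, -0.16 for mural and 0.39 for fibroblast genes, against 0.06 over all genes. No mural gene passed in any tissue comparison with all libraries (smallest adjusted p 0.176). Nearest in the cerebellum were Rgs5 at 0.75 ± 0.47 against hippocampus, which was 0.05 ± 0.35 without cerebellum sham 1, and Pdgfrb at -0.32 ± 0.18 (adjusted p = 0.176) against cortex. Abcc9, the sulfonylurea receptor subunit of the pericyte potassium channel whose pore is Kcnj8, was at -0.41 ± 0.45 and -0.77 ± 0.44 in the 2 comparisons. Without cerebellum sham 1, Rgs5 (-0.93 ± 0.35, adjusted p = 0.034) and Abcc9 (-1.07 ± 0.41, adjusted p = 0.0386) were called lower in cerebellum than in cortex, among 11 members in all, while 50.2% of all genes were called. In that fit the endothelial genes Slco1a4 (-0.54 ± 0.20, adjusted p = 0.0269) and Abcb1a (-0.86 ± 0.25, adjusted p = 0.00795) were also called lower. Cldn5 was called higher (0.73 ± 0.26, adjusted p = 0.026).

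**Figure D3:**
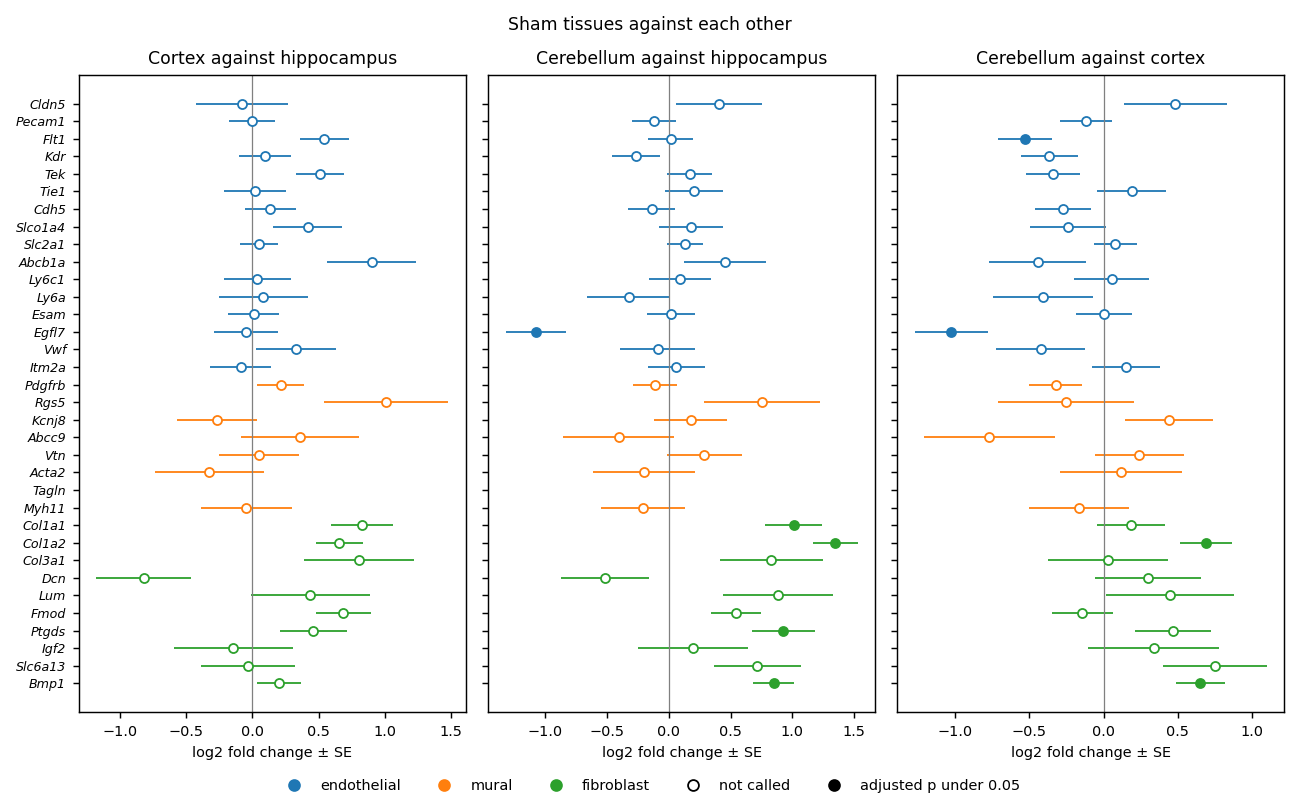
Log2 fold change ± SE of each tested member between sham tissues, grouped by cell class; filled points have an adjusted p under 0.05 and open points do not. Fibroblast genes sit mostly right of 0 in the cerebellum panels, with 4 filled against hippocampus, and Egfl7 is at -1.08 and -1.03.

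The other genes of the same cells were read from lists drawn up for these tissues. Counts here are to be read against all genes, of which 12.9% rose and 15.5% fell in sham cerebellum against hippocampus, and 17.9% and 16.8% against cortex. Against hippocampus, 6 of 22 other endothelial genes fell and none rose. They included the surface antigen Cd34 (-1.08 ± 0.24, adjusted p = 0.00265), the thyroid hormone carrier Slco1c1 (-0.73 ± 0.15, adjusted p = 0.00106), the lipid carrier Mfsd2a (-0.97 ± 0.27, adjusted p = 0.0115) and the Wnt effector Lef1 (-1.60 ± 0.40, adjusted p = 0.00617). Lef1 is also on the list of thalamus and habenula genes read below, so its value cannot be given to vessels alone. Against cortex, 2 rose and 5 fell, with Cd34 at -2.19 ± 0.25 (11.4 against 48.9 CPM) and Slco1c1 at -0.99 ± 0.15. Cd34 was also the 1 gene of this list that rose in cortex against hippocampus (1.11 ± 0.24, adjusted p = 0.0165).

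Of 12 other mural genes tested, 2 rose and 1 fell in cerebellum against hippocampus, and 3 rose and 3 fell against cortex, near the shares over all genes. Mcam, an adhesion molecule, rose by 1.04 ± 0.24 and 1.92 ± 0.25, and Foxs1, a transcription factor of pericytes, by 1.60 ± 0.52 and 1.77 ± 0.51. The proteoglycan gene Cspg4 fell by 1.52 ± 0.23 and 1.39 ± 0.23. Cspg4 also marks oligodendrocyte precursors, as does Pdgfra of the fibroblast list, which fell by 1.48 ± 0.34 and 1.59 ± 0.34. Of 25 other fibroblast genes tested, 4 rose and 1 fell against hippocampus and 1 rose and 2 fell against cortex. The share that rose was near that of all genes against hippocampus and below it against cortex. The organic cation carrier Slc47a1 rose by 1.65 ± 0.44 (adjusted p = 0.00867), the anion carrier Slc22a6 by 0.85 ± 0.26 and the matrix gene Efemp1 by 0.77 ± 0.25 against hippocampus. Against cortex, the sulfate carrier Slc13a4 rose by 0.52 ± 0.18 and Fn1, fibronectin, fell by 0.82 ± 0.18.

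Genes of signals that act on vessels were called in both directions, at shares near those of all genes. Wnt7a and Wnt7b are ligands from neural cells that keep up the barrier, and they differed in opposite directions: Wnt7a rose in cerebellum by 2.38 ± 0.14 and 2.86 ± 0.14 (111 CPM against 20.5 in hippocampus and 14.5 in cortex), while Wnt7b fell by 1.55 ± 0.27 and 1.27 ± 0.27. Pdgfb, the ligand that recruits pericytes, fell by 1.47 ± 0.22 and 1.48 ± 0.22. Against hippocampus 2 of the 20 signalling genes rose and 4 fell, Nrp1, a VEGF co-receptor, among them at -1.83 ± 0.37. Against cortex 3 rose and 4 fell, the last including the TGF-beta receptor Tgfbr2 (-0.92 ± 0.23). Of 13 basement membrane genes, 3 rose and 2 fell against hippocampus, and 4 rose and 3 fell against cortex. Those of smallest p were Sparc, a collagen-binding protein also made by astrocytes (1.44 ± 0.17 and 1.91 ± 0.18), and Agrn, agrin (-1.64 ± 0.15 and -1.54 ± 0.15). Nid1, the linker protein nidogen, rose by 1.09 ± 0.29 and the collagen gene Col4a2 fell by 0.74 ± 0.23 against hippocampus. The laminin chain gene Lamb1 rose by 1.30 ± 0.19 and Lama4 fell by 0.92 ± 0.20 against cortex, and in cortex against hippocampus Lamb1 fell by 1.005 ± 0.19 and Lama4 rose by 0.80 ± 0.20. Many of these genes are also expressed outside vessels, and the cells of origin cannot be told apart in bulk tissue.

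Bulbectomy changed no member past the threshold in any tissue. In the hippocampus 31 of 34 members passed the filter on low counts (Tagln, Lum and Igf2 did not), and 0 were called by edgeR or limma voom, while DESeq2 called 5 (and 6.82% of all genes). At an unadjusted p under 0.05, 6 were higher and 4 lower, against 1271 and 1523 of the 13985 genes tested, of which 0.551% rose and 1.0% fell. The groups did not overlap for 2 members higher (4.05% of all genes) and 4 lower (5.43%). The median log2 difference was 0.06 for endothelial, 0.05 for mural and 0.25 for fibroblast genes, against 0.02 over all genes. Single genes lay on both sides of these medians.

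Ly6c1 (chr15:75044018-75048830, minus strand) came closest to the threshold. It encodes a surface antigen of brain endothelium from a family of near-identical neighbours, among which the counting could split reads, as for Ly6a. Its hippocampus values were 88.3, 87.7, 115 and 117 CPM after bulbectomy and 30.7, 63.2, 48.2, 52.6 and 77.6 CPM after sham surgery. The groups did not overlap, and the log2 difference was 0.92 ± 0.23 (adjusted p = 0.0571). In cortex Ly6c1 was at 59.2, 105 and 110 CPM against 40.0, 51.4, 54.9, 65.2 and 64.3 CPM (0.70 ± 0.22, adjusted p = 0.687). In cerebellum it was at 92.8 and 92.7 CPM against 31.9, 53.5, 61.8, 70.9 and 85.8 CPM (0.60 ± 0.31, adjusted p = 0.9998). Means were therefore higher in all 3 tissues, with cortex bulbectomy 1 inside the sham range.

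Ly6a was at 173, 159, 507 and 152 CPM in bulbectomy hippocampus and at 70.7, 164, 86.2, 130 and 147 CPM in sham hippocampus. Bulbectomy 3 stood apart from all others, and the log2 difference of 1.09 ± 0.42 (adjusted p = 0.196) was 0.44 without it. Slc2a1 was at 118, 137, 142 and 128 CPM against 83.4, 116, 110, 101 and 107 CPM. Its groups did not overlap, with a log2 difference of 0.37 ± 0.15 (adjusted p = 0.191). Cldn5 was 0.59 ± 0.28 higher with overlapping groups.

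Other endothelial genes lay on the opposite side. Abcb1a (chr5:8660077-8748575, plus strand) was at 3.33, 2.69, 2.41 and 3.15 CPM in bulbectomy hippocampus and at 10.3, 5.31, 4.66, 8.01 and 4.72 CPM in sham hippocampus. No bulbectomy library reached the lowest sham value, and the log2 difference was -1.14 ± 0.31 (adjusted p = 0.0731). Kdr (chr5:75932827-75978458, minus strand), which encodes VEGF receptor 2, was at 5.998, 6.97, 6.84 and 7.38 CPM against 12.4, 8.20, 12.4, 13.8 and 11.1 CPM. The groups were again apart (-0.74 ± 0.21, adjusted p = 0.0906). Tek, at 5.22, 3.55, 6.21 and 4.48 CPM against 10.02, 7.85, 6.69, 10.1 and 7.13 CPM, did not overlap either (-0.75 ± 0.26, adjusted p = 0.134). Kdr, Tek and Abcb1a had lower means after bulbectomy in the other tissues too: Kdr by -0.07 ± 0.29 in cortex and -0.70 ± 0.28 in cerebellum, Tek by -0.53 ± 0.26 and -0.53 ± 0.28, and Abcb1a by -0.61 ± 0.39 and -1.13 ± 0.58, the last at -0.66 ± 0.29 without cerebellum sham 1.

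Mural genes also lay on both sides of 0. Abcc9 (chr6:142587862-142702315, minus strand) was at 1.44, 1.35, 1.14 and 2.54 CPM in bulbectomy hippocampus and at 7.37, 2.66, 4.06, 4.33 and 2.94 CPM in sham hippocampus. The groups did not overlap, and the log2 difference was -1.33 ± 0.39 (adjusted p = 0.0917). Read numbers were low: 13, 11, 9 and 21 after bulbectomy, and 25 in the shallow sham 1, which gave the highest sham value. Its channel partner Kcnj8 was at -0.05 ± 0.36. Rgs5 (chr1:169655501-169695813, plus strand) was at 13.2, 13.3, 10.1 and 16.3 CPM against 5.01, 5.31, 5.14, 11.2 and 9.86 CPM (0.85 ± 0.28, adjusted p = 0.125), with bulbectomy 3 inside the sham range. Among contractile genes, Acta2, smooth muscle actin, was 0.66 ± 0.30 higher and the myosin heavy chain Myh11 0.51 ± 0.42 lower. Of the other mural list, Myl9, a myosin light chain of smooth muscle, was the 1 gene of 11 tested that rose (0.83 ± 0.18, adjusted p = 0.0393; 24.1 against 13.8 CPM). It was the only gene called in the hippocampus among the 5 lists of other vessel and fibroblast genes.

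Of the 8 fibroblast genes tested in hippocampus, 7 had higher means after bulbectomy, and the groups overlapped in all 8. Bmp1 was at 31.1, 36.3, 40.3 and 39.1 CPM against 22.7, 34.3, 25.9, 23.1 and 30.2 CPM, with 1 sham library inside the bulbectomy range (0.45 ± 0.18, adjusted p = 0.187). Col1a1 was at 0.36 ± 0.30 (adjusted p = 0.514). Genes that mark tissue beside the hippocampus had different means in these groups. All 10 genes of thalamus and habenula were higher after bulbectomy and 4 were called, while 0.551% of all genes rose. Their summed levels were 321 to 542 CPM against 91.4 to 362. All 9 striatal genes were lower, through sham 1 and 2. Without those 2 libraries Ly6c1 was at 0.82, Abcb1a at -0.98, Kdr at -0.84, Abcc9 at -1.19 and Rgs5 at 0.61. Tissue taken along with the hippocampus and a change of expression cannot be told apart here, and their part in these values was not tested.

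In the cortex 33 of 34 members were tested and 0 were called by edgeR or DESeq2, while limma voom called 1, Ptgds (and 1.7% of all genes). At an unadjusted p under 0.05, 4 were higher and none lower, against 610 and 267 of 14847 genes. Over all genes 0.0202% rose and 0% fell. The groups did not overlap for 2 members, both higher (2.19% of all genes were so, and 1.40% not overlapping and lower). Fmod (chr1:134037254-134048277, plus strand) was at 91.7, 57.6 and 87.1 CPM after bulbectomy and at 46.1, 35.3, 49.2, 51.5 and 41.8 CPM after sham surgery (0.80 ± 0.19, adjusted p = 0.384). Ptgds was at 1532, 1975 and 2283 CPM against 1386, 892, 1352, 1020 and 1044 CPM (0.74 ± 0.19, adjusted p = 0.463). All 3 bulbectomy libraries lay above all 5 sham libraries in both genes. The 8 oligodendrocyte genes were all higher in these bulbectomy libraries as well, by a median of 0.37, with summed levels of 1872 to 2720 CPM against 1464 to 2126, and their part in the Ptgds value was not tested.

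No other cortex member had groups apart. Itm2a, an endothelial membrane protein, was at 35.6, 59.7 and 48.0 CPM against 19.2, 40.7, 27.4, 32.1 and 31.9 CPM (0.64 ± 0.23, adjusted p = 0.750). In mural cells Acta2 was at 0.62 ± 0.37 (adjusted p = 0.861) and Abcc9 at -0.55 ± 0.33 (adjusted p = 0.863). The class medians were 0.09, 0.29 and 0.17 for endothelial, mural and fibroblast genes, against 0.01 over all genes. Cortex bulbectomy 1 differed from the other 2: Abcb1a was at 14.0 CPM there and at 6.12 and 3.37 in the others, and Kdr at 17.5 against 8.16 and 9.19. Without it 3 of 33 members were called, and 3.79% of all genes: Ly6c1 at 0.92 (adjusted p = 0.0245), Ptgds at 0.86 (adjusted p = 0.0301) and Abcb1a.

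In the cerebellum, with 2 bulbectomy libraries, 33 members were tested and 0 were called by edgeR or DESeq2, while limma voom called 1, Bmp1 (and 0.438% of all genes). At an unadjusted p under 0.05, 1 was higher and 3 lower, against 237 and 217 of 15295 genes, of which 0.0131% rose and 0% fell. The groups did not overlap for 2 members higher (6.02% of all genes) and 5 lower (4.92%). Bmp1 was at 88.3 and 125 CPM after bulbectomy and at 40.3, 59.0, 63.2, 46.0 and 49.0 CPM after sham surgery. Both bulbectomy libraries were above every sham library, and the log2 difference was 1.04 ± 0.20 (adjusted p = 0.9998). Without cerebellum sham 1 it was 0.98 (adjusted p = 0.0348).

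Both type I collagen chains had lower means in the cerebellum after bulbectomy. Col1a1 was at 12.96 and 14.2 CPM against 18.1, 27.3, 31.6, 17.9 and 26.4 CPM (-0.84 ± 0.27, adjusted p = 0.9998), with no overlap. Col1a2 was at 52.9 and 55.6 CPM, inside the sham range (-0.45 ± 0.21). Igf2, a growth factor of meninges and choroid plexus, was at 0.501 and 0.875 CPM against 2.60, 2.26, 2.31, 2.54 and 1.16 CPM (-1.66 ± 0.52, adjusted p = 0.9998). It shares 62.83% of its exon bases with Gm49394 on the same strand, so its value is uncertain. Among endothelial genes Kdr was at 5.73 and 6.81 CPM against 8.01, 9.90, 12.7, 9.71 and 10.1 CPM (-0.70 ± 0.28, adjusted p = 0.9998). All mural groups overlapped, with Pdgfrb at -0.17 ± 0.25 and Kcnj8 at -0.24 ± 0.39. Rgs5 was at 0.15 ± 0.76, and at 0.89 ± 0.37 without cerebellum sham 1 (adjusted p = 0.416). The class medians were -0.11, -0.17 and -0.19, against -0.06 over all genes. Choroid plexus genes summed to 40.8 and 1055 CPM in the 2 bulbectomy libraries, and their part in these values was not tested.

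**Figure D4:**
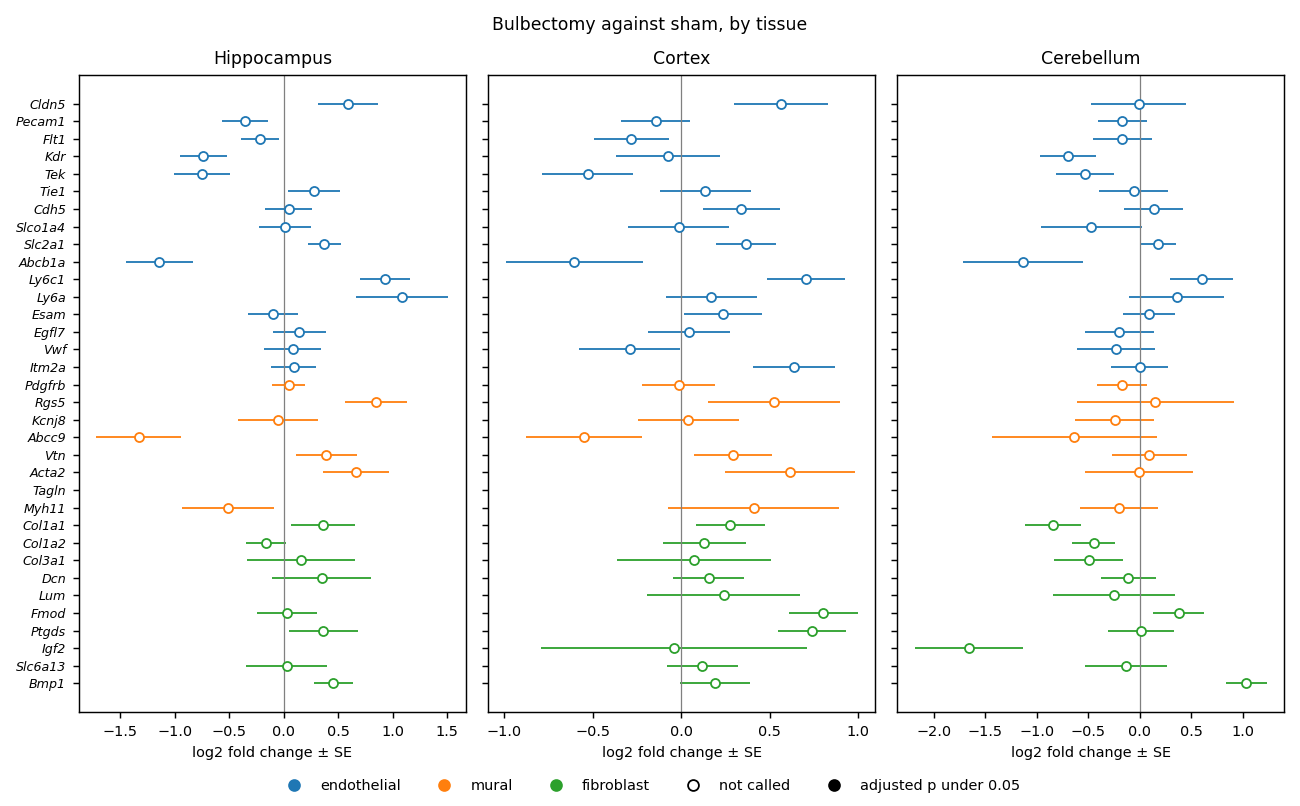
Log2 fold change ± SE of each tested member, bulbectomy against sham, in the 3 tissues, grouped by cell class; all points are open because no adjusted p was under 0.05. Ly6c1 is right of 0 and Kdr, Tek, Abcb1a and Abcc9 are left of 0 in every panel, with differing SEs, and Bmp1 is at 1.04 in cerebellum.

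The effect of bulbectomy was compared between tissues as an interaction. Of 16564 genes, 0 (0%) were called by edgeR in each of the 3 pairs of tissues, and none of the members passed. At an unadjusted p under 0.05 there were 3, 2 and 2 members, against 466, 511 and 276 of all genes. None of the values that follow passed the test. The difference in effect for Col1a1 was, hippocampus minus cerebellum, 1.17 ± 0.41 and, cortex minus cerebellum, 1.13 ± 0.42, and for Bmp1 -0.62 ± 0.29 and -0.84 ± 0.30. Hippocampus minus cortex, it was -0.70 ± 0.33 for Kdr, -0.82 ± 0.37 for Fmod and -2.81 ± 1.03 for Igf2. Igf2 had 59, 1 and 4 reads in cortex bulbectomy 1, 2 and 4, and 3, 2, 1 and 2 in the hippocampus bulbectomy libraries. Its value therefore rests on few reads and, in cortex, on bulbectomy 1. Of the 31 members tested in all 3 tissues, 10 had a higher mean after bulbectomy in each tissue (Bmp1, Cdh5, Fmod, Itm2a, Ly6a, Ly6c1, Ptgds, Rgs5, Slc2a1 and Vtn) and 6 a lower one (Abcb1a, Abcc9, Flt1, Kdr, Pecam1 and Tek). None of these was called in any tissue by edgeR with all libraries. The share of all genes with the same sign in every tissue was not counted, so these numbers describe the members only.

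Differences after bulbectomy varied with gene length. Of the members with lower means in all 3 tissues, Kdr has 9030 exon bases, Abcc9 8373, Abcb1a 5480 and Tek 4712. Of those with higher means in all 3, Ly6a and Ly6c1 have 1205 and 1677, but Rgs5 has 4546 and Bmp1 8870. Across the members, Pearson's r between the log2 difference and log2 exon length was -0.51 in hippocampus (31 genes), -0.59 in cortex and -0.37 in cerebellum (33 genes each). Within the 16 endothelial genes it was -0.62, -0.72 and -0.57. Over all genes tested the same r was -0.26, -0.18 and -0.18, so a trend of the same sign was present over all genes. These are values across genes of the same libraries, given as a description. With a trend over length and GC content removed from all genes, the hippocampus difference was 0.75 for Ly6c1, -0.92 for Abcb1a, -0.55 for Kdr, -1.06 for Abcc9 and 0.99 for Rgs5, the last with an adjusted p of 0.0479. Between sham tissues r across the 33 members was 0.33 for cortex against hippocampus (0.53 in endothelial genes, 0.20 over all genes), 0.04 for cerebellum against hippocampus (0.02 over all genes) and -0.25 for cerebellum against cortex (-0.45 in endothelial genes, -0.06 over all genes). The part of length in these values was otherwise not tested.

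**Figure D5:**
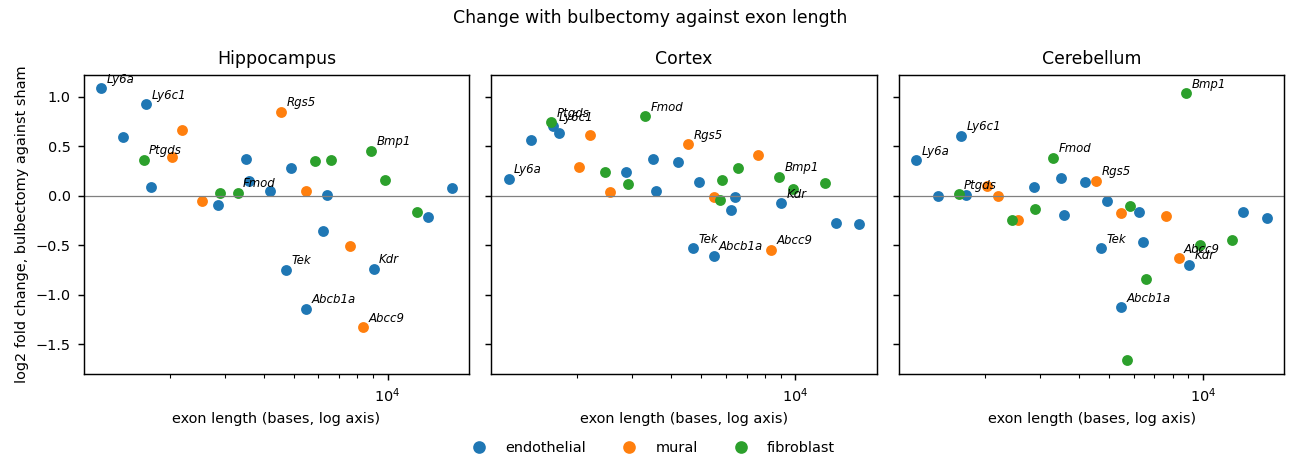
Log2 difference between bulbectomy and sham against exon length (log axis) for each tested member in the 3 tissues, coloured by cell class, with 10 genes named. Ly6c1, a short gene, lies above 0 and Kdr and Abcc9, long ones, below it, while Bmp1, also long, lies above it; r is -0.51, -0.59 and -0.37.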

How the data were processed

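Each deposited file gives unnormalized counts of reads by Ensembl gene, which the authors made with Trimmomatic, STAR and featureCounts on mm10, per the submitters' processing notes. The sources used here give no versions, annotation or strand setting. Reads not assigned to 1 gene (6.61% to 13.26%) were left out of library sizes. GENCODE M21 gave coordinates (counted from 1), exon lengths and overlaps. The members and lists were chosen with earlier results of these data known.

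After filterByExpr and TMM scaling, genes went into the quasi-likelihood test of edgeR 4.0.16 in R 4.3.3 (estimateDisp, robust glmQLFit): bulbectomy against sham within each tissue, and the 3 sham tissues in 1 fit. Interactions were contrasts over all 24 libraries. Two-sided p-values had Benjamini-Hochberg adjustment across every gene of the fit. A gene was called, or said to rise or fall, at an adjusted p under 0.05. CPM used 1 TMM scaling of the 24 libraries. All members were followed. Those called, or else the 2 of smallest p in a class, are given in full, as are up to 4 called genes of smallest p from each of the 5 other vessel lists. Others are shown for every-library values and were picked after these were seen. The fit was tested on simulated data.

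The alternatives were DESeq2 1.42.0, limma 3.58.1 voom with sample weights, RLE scaling, no filter on low counts, the replicate block, a fit of all libraries or of only 2 tissues, and each library left out. Removing a length and GC trend was chosen after seeing the data. Between sham hippocampus and cerebellum, deviations of the 5 same-numbered pairs correlated at 0.25 to 0.44. Such pairs ran from -0.10 to 0.45 between sham hippocampus and cortex, and from -0.16 to 0.41 between sham cortex and cerebellum. In both, number 5 was the only negative pair. Cortex bulbectomy 1 and cerebellum sham 1, of different operations, correlated at 0.52. Libraries of different number were not compared and no label explains the numbers, so whether they pair libraries is not known. No 2 libraries of the same group agreed within sampling noise.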

Additional observations from a re-analysis of the deposited data

Results flagged for a closer look

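Member values were marked where 1 library lay far from the rest of its group by Dixon's ratio at the 95% level, in groups of 4 or 5 libraries. Chance marks about 5 in 100 such groups, and 8 of 136 were marked. Of these, 4 came from cerebellum sham 1. Its Slco1a4 value was 24.4 CPM against 9.96 to 12.2 in the other sham cerebellum libraries, its Abcb1a value 18.8 against 5.87 to 8.49, and its Rgs5 value 32.4 against 5.68 to 13.3. Its Egfl7 value was 7.48 CPM against 16.7 to 18.1. Slco1a4, an organic anion carrier, and Abcb1a are both transporters of the barrier endothelium. Tek was at 8.04 CPM in cerebellum sham 4 against 9.98 to 10.7, and Igf2 at 1.16 CPM in cerebellum sham 5 against 2.26 to 2.60. In the hippocampus after bulbectomy, library 3 had Ly6a at 507 CPM against 152 to 173, and Pecam1, an adhesion molecule of endothelial junctions, at 33.6 CPM against 19.8 to 21.3.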

How the results depend on the processing

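Egfl7, Col1a1, Col1a2, Ptgds and Bmp1 kept their call between sham cerebellum and hippocampus under all 18 alternatives, and Egfl7, Col1a2 and Bmp1 against cortex under all 17. Flt1 lost its call against cortex in 9 of 17, with an adjusted p up to 0.201 and a smallest difference of -0.22, after removal of the length and GC trend. No member with an unadjusted p under 0.05 reversed. Class medians near 0 did change sign: after bulbectomy in hippocampus the endothelial median ranged from -0.09 to 0.13, the mural from -0.02 to 0.19 and the fibroblast from -0.13 (without sham 1 and 2) to 0.42, in cortex the endothelial from -0.06 to 0.28, and in cerebellum the endothelial and mural were 0.08 and 0.15 with the replicate block. Between sham tissues the mural medians ranged from -0.09 to 0.24, -0.17 to 0.04 and -0.25 to 0.12, and the endothelial median of cerebellum against hippocampus from -0.03 to 0.15. The fibroblast medians between sham tissues kept their sign. Members called in hippocampus after bulbectomy numbered 5 with DESeq2 (6.82% of all genes) and 2 without the filter on low counts (0.768%). There was 1 after removal of the trend (3.2%) and 1 without sham 1 and 2 (2.48%). With 1 library left out there were 0 to 2: Kdr and Ly6c1 without sham 2 (3.46% of all genes), and 1 without sham 5 (2.16%). Igf2 was called lower without the filter, and was the 1 called, also lower, without sham 1 and 2. It had only 3, 2, 1 and 2 reads in the hippocampus bulbectomy libraries. In cortex there was 1 with voom (1.7% of all genes), and 0 to 3 with 1 library left out (3.79% of all genes where 3 were called). In cerebellum there was 1 with voom (0.438% of all genes) and 1 without cerebellum sham 1 (0.237%). Between sham cortex and hippocampus there were 3 with DESeq2 (5.91% of all genes), 6 with voom (10.1%) and 2 with the replicate block (5.05%). There was 1 in a fit of only these tissues (6.06%), 4 after removal of the trend (5.66%) and 1 without hippocampus sham 1 and 2 (3.01%). Between sham cerebellum and hippocampus there were 8 with the block, which called 35% of all genes. Between sham cerebellum and cortex there were 15 of 33 with voom, which called 59.6% of all genes, and 3 to 11 with 1 library left out, 11 of 33 without cerebellum sham 1, which called 50.2% of all genes, and 2 higher and 1 lower after removal of the trend. The causes were not tested. The replicate block moved no other count of members called. The interactions stayed at 0 members called under the alternatives run. Where 1 bulbectomy library of cerebellum was left out, the lone sample was assumed to vary like the sham group.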

Other observations

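Cells inside or beside the vessels were measured as well. Of 6 perivascular macrophage genes, summed levels lay between 2.36 and 12.03 CPM over all 24 libraries. Mrc1, the mannose receptor, was the 1 gene of 4 tested that was called between sham tissues. It was higher in sham cortex than in sham hippocampus (1.25, adjusted p = 0.0256, edgeR), where 1.21% of all genes rose. It was lower in sham cerebellum than in cortex (-0.91, adjusted p = 0.0194, edgeR), where 16.8% fell. It was chosen after its values were seen. Red blood cell genes, a sign of blood left in the vessels, ran from 66.9 to 892 CPM in sham cerebellum and from 119 to 665.5 CPM in sham hippocampus. The anion exchanger gene Slc4a1 was the 1 of 5 tested that was called higher in sham cerebellum, where 12.9% and 17.9% of all genes rose. It was 2.81 higher against hippocampus (adjusted p = 0.00137) and 1.72 against cortex (adjusted p = 0.016, edgeR). Its mean was low, at 2.67 CPM in sham cerebellum, 0.359 in hippocampus and 0.757 in cortex. The other genes tested, at higher levels, were not called, and Slc4a1 too was chosen after its values were seen.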
